A study of Komagataella pastoris with 3 samples.

Results

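The steady well-expressed genes of Pichia pastoris GS115 were 136 of the 5040 genes in a table of messenger RNA levels at 24, 36 and 48 h of culture. A gene was taken when it had 100 FPKM or more in every library and when its highest and lowest log2(FPKM + 1) over the 3 libraries differed by less than 0.5. FPKM gives a gene's fragments per kilobase of its length, relative to all fragments that mapped in that library. That difference is called the range below, and its limit corresponds to about 1.41-fold. The members were chosen by these measured values, and all 3 values of every gene entered the choice. The levels, changes and ranges of these genes are given as a description, without a test, and a small change of them is not a finding.

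Genes whose messenger RNA keeps to a nearly constant share of a library are used as internal references when other genes are measured by quantitative PCR. In yeasts they are often sought among genes for cell structure, protein turnover, membrane traffic and basal transcription, which growing and resting cells both need. A batch culture in rich glucose medium passes from rapid growth to slower growth as the sugar is used up, and genes for ribosomes and for sugar metabolism are known to follow that passage closely, so that abundance alone does not make a gene a good reference. A level per library is a share, and whether a gene looks steady depends on what the library is scaled to.

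Pichia pastoris GS115, labelled as wild type, is a yeast that can live on methanol, serves as a host for recombinant proteins and is today mostly placed in Komagataella phaffii. It was grown with shaking in the rich glucose medium YPD, and cells taken at 24, 36 and 48 h gave 1 RNA sequencing library each. Without replicates there is no error between cultures to set a value against, no test was made, and every comparison sets 1 library against another. In a bulk culture, fewer cells that express a gene and less of its RNA per cell cannot be told apart. Over all genes FPKM summed to 871921, 785727 and 760684 at 24, 36 and 48 h, and the sequencing depth is unknown. The genes carry locus tags without names or functions, and 0 of the 136 tags matched the reference table at hand, which describes another Komagataella species. The steady genes are therefore described by tag, level, course and place, and whether they hold the housekeeping functions named above was not tested.

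Well-expressed genes were steady about as often as genes at large. Of the 793 genes that reached 100 FPKM in every library, 136 had a range under 0.5, which is 17.2%. Among all 5028 genes that reached 1 FPKM in any library the same range was found in 846, or 16.8%, so 710 further steady genes fell below the limit on level. The 136 genes had a median range of 0.34, with an interquartile range from 0.23 to 0.43. The median range was 1.16 over the 793 well-expressed genes and 1.12 over all 5028. Of the 136, 41 had a range under 0.25 and 3 a range under 0.1. The limits cut through a continuous spread. The 3 members nearest to the range limit had ranges of 0.492, 0.494 and 0.499, and the 3 genes next beyond it had 0.501, 0.506 and 0.508. On the level limit, the 3 lowest members reached 101.1, 101.7 and 102.5 FPKM in their lowest library, and the 3 steady genes just left out reached 99.6, 99.7 and 99.7 FPKM.

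**Figure D1:**
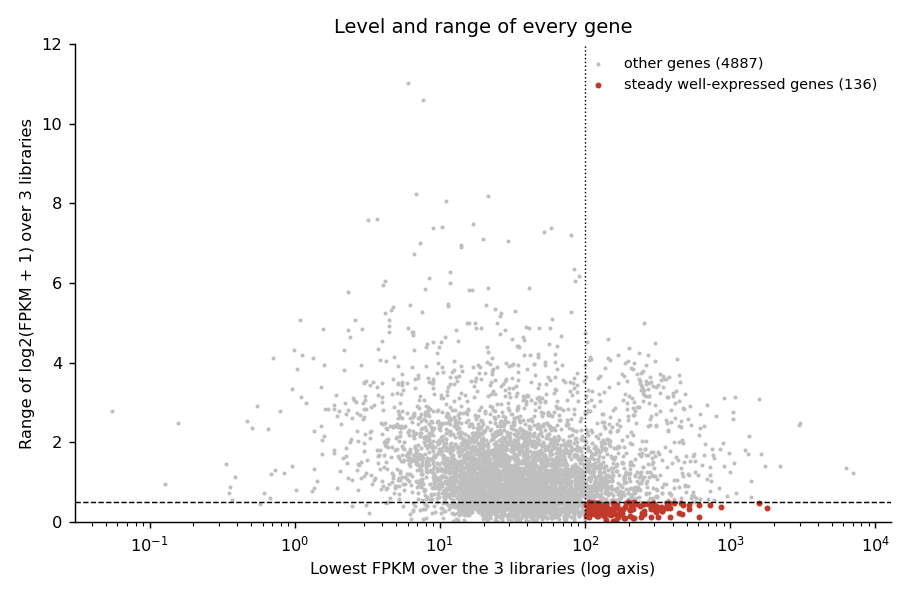
Each point is a gene, with its lowest FPKM over the 3 libraries on a log axis and its range of log2(FPKM + 1) on the vertical axis. The 136 steady well-expressed genes (red) fill the corner to the right of the dotted line at 100 FPKM and below the dashed line at 0.5, and they continue without a gap into the 4887 other genes (grey), while 5 genes listed at 0 in a library are not drawn.

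The rule also leaves out a pair of tags by name, PAS_chr3_1169 and PAS_FragB_0052, and neither would have met it. PAS_chr3_1169 had 1914, 1551 and 728 FPKM at 24, 36 and 48 h, a range of 1.39. PAS_FragB_0052 had 16025, 4692 and 2969 FPKM at 24, 36 and 48 h, a range of 2.43. Both were above the limit on level in every library, both were highest at 24 h and lowest at 48 h, and both failed on the range alone.

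Most steady genes were of moderate abundance. Their median level was 181, 186 and 176 FPKM at 24, 36 and 48 h, against 54.5, 48.4 and 51.6 FPKM over the 5028 genes. That height follows from the limit of 100 FPKM. Over the 793 genes that met the same limit the medians were higher, 267, 302 and 247 FPKM at 24, 36 and 48 h. The interquartile ranges were 147 to 307 FPKM at 24 h, 138 to 312 FPKM at 36 h and 140 to 303 FPKM at 48 h. Placed by their lowest library, 81 of the 136 lay between 100 and 200 FPKM, 47 between 200 and 500, 6 between 500 and 1000, and 2 at 1000 FPKM or more. The share of steady genes was not the same at each level. Ranges under 0.5 were found in 4.14% of 532 genes with a lowest value between 1 and 10 FPKM, in 20.4% of 1400 genes between 25 and 50 FPKM and in 23.0% of 984 genes between 50 and 100 FPKM. Above the limit on level the share was 17.7% of 457 genes between 100 and 200 FPKM, 17.9% of 263 between 200 and 500, 11.5% of 52 between 500 and 1000, and 9.52% of 21 at 1000 FPKM or more. The highest bands hold few genes, and the counting error of the lowest ones is not known, as depth is not given.

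**Figure D2:**
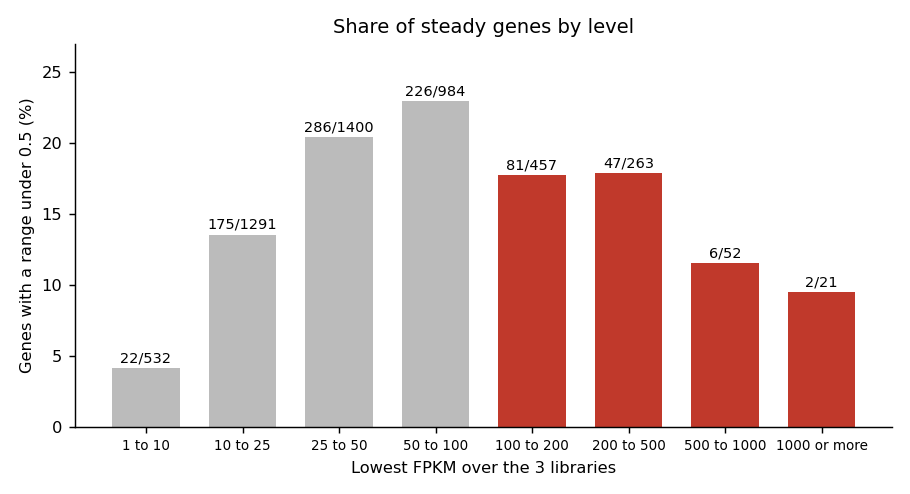
Bars give the percentage of genes with a range under 0.5 in each band of the lowest FPKM over the 3 libraries, with steady genes over all genes of the band printed above each bar. Bands at or above 100 FPKM (red) hold the 136 steady well-expressed genes, and the share is highest, 23.0%, in the band from 50 to 100 FPKM just below them.

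Together the 136 genes kept nearly the same sum while the libraries' totals fell. Their FPKM summed to 36257, 35942 and 36720 at 24, 36 and 48 h. As a share of total FPKM this was 4.16%, 4.57% and 4.83%. That rise belongs to the list chosen with the deposited scaling. Lists chosen anew under the scalings described below held less at 48 h than at 24 h. Their shares at 24, 36 and 48 h were 4.50%, 4.13% and 4.29% with median-of-ratios scaling. They were 4.39%, 4.07% and 4.08% with trimmed-mean scaling, and 4.39%, 4.25% and 4.27% with equal totals. The 657 well-expressed genes outside the 136 held 62.0%, 58.6% and 46.9% of the totals at the same times, with sums of 540842, 460101 and 357113 FPKM. The geometric mean of the steady genes was 218, 216 and 215 FPKM at 24, 36 and 48 h. That of the 657 others was 395, 396 and 314 FPKM at 24, 36 and 48 h. The rule bounds the range of every member, so the nearly constant sum and mean largely follow from the choice. It also puts genes of wider range among the 657, so nothing is read from the contrast.

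The first comparison, 36 h against 24 h, left the steady genes close to no change with the deposited scaling. Their median difference of log2(FPKM + 1) was -0.05, with an interquartile range from -0.21 to 0.17. They were higher at 36 h in 56 cases and lower in 80, that is 41.2% and 58.8%, where 39.8% of all 5028 genes were higher and 60.2% lower. The median over all 5028 genes was -0.21, and that over the 793 well-expressed genes was 0.10. Differences within 0.1 were seen for 34 of the 136 genes and within 0.25 for 80.

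From 36 to 48 h the median difference of the steady genes was 0.01, with an interquartile range from -0.21 to 0.17. At 48 h 73 were higher than at 36 h and 63 lower, in a background of 51.6% higher and 48.4% lower among all genes. The 793 well-expressed genes had a median of -0.22 in this interval and all 5028 a median of 0.03. Of the 136 genes, 31 (22.8%) stayed within 0.1 and 85 (62.5%) within 0.25, against 9.51% and 23.1% of all 5028. This contrast too follows largely from the limit on range.

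Over the whole course, 48 h against 24 h, the median difference of the steady genes was -0.03, with an interquartile range from -0.20 to 0.18. There were 61 that ended higher and 75 that ended lower, in a background of 42.2% higher and 57.8% lower. The medians were -0.20 over the 793 well-expressed genes and -0.25 over all genes. The comparisons share libraries, and the rule bounds each difference of a member below 0.5, so the 3 medians are not independent of each other or of the choice. With the other scalings described below, most steady genes ended higher.

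The most abundant steady genes stood well above the rest. PAS_chr3_0277 had 1782, 2054 and 2276 FPKM at 24, 36 and 48 h, with ranks among the 5040 genes of 99, 37 and 38. It was lowest at 24 h and highest at 48 h, and its range was 0.35. PAS_chr2-1_0072 had 1771, 1571 and 2174 FPKM at 24, 36 and 48 h, with ranks of 101, 62 and 39 and a range of 0.47. It dipped at 36 h and was highest at 48 h. These were the only 2 of the 136 that reached 1000 FPKM in every library, and both climbed in rank while their FPKM moved by less than 1.41-fold.

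PAS_chr2-1_0618 and PAS_chr2-1_0810 varied least with the deposited scaling, and their levels lay well below those of the most abundant members. No relation between range and level among the steady genes is read from this pair. PAS_chr2-1_0618 had 156, 158 and 156 FPKM at 24, 36 and 48 h, a range of 0.02, with the highest value 1.02 times the lowest. PAS_chr2-1_0810 had 162, 167 and 168 FPKM at 24, 36 and 48 h, a range of 0.05, with the highest value 1.04 times the lowest. The former peaked slightly at 36 h, and the latter was lowest at 24 h and highest at 48 h. These small ranges held for the deposited scaling alone. With median-of-ratios, trimmed-mean and equal-total scaling the range of PAS_chr2-1_0618 was 0.26, 0.25 and 0.19, and that of PAS_chr2-1_0810 was 0.29, 0.31 and 0.25. How much of such differences is sampling noise was not tested.

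At the edges of the group lay the members with the largest net change. PAS_chr3_0372 had 216, 292 and 305 FPKM at 24, 36 and 48 h, a difference of 0.49 between the last and first library, most of it before 36 h. PAS_chr1-4_0220 had 115, 115 and 160 FPKM at 24, 36 and 48 h, a difference of 0.47 that lay after 36 h. In the other direction, PAS_chr3_0578 had 148, 129 and 106 FPKM at 24, 36 and 48 h, a difference of -0.48. PAS_chr1-1_0324 had 162, 128 and 116 FPKM at 24, 36 and 48 h, a difference of -0.47. The latter pair was lower in each later library, and by their tags the 4 genes lie on chromosomes 1 and 3.

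**Figure D3:**
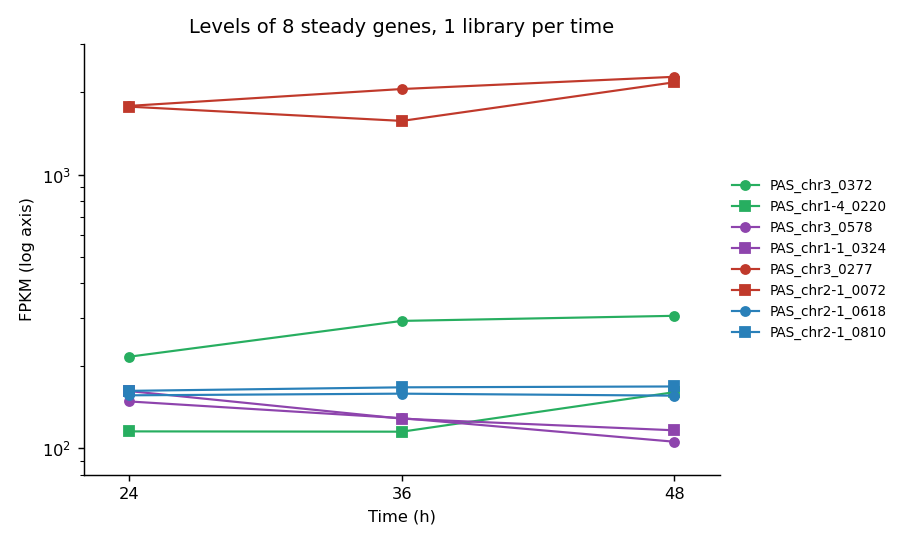
FPKM of 8 steady genes (log axis) at 24, 36 and 48 h, with 1 library per point and lines joining the values of a gene. Red lines are the 2 most abundant members, at 1571 to 2276 FPKM, blue lines the 2 with the smallest range, green lines the 2 with the largest rise and purple lines the 2 with the largest fall from 24 to 48 h.

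Within the limit of 0.5 the steady genes did not share a course. With the deposited scaling, 54 of the 136 (39.7%) were lowest at 36 h, 37 (27.2%) were highest at 36 h, 26 (19.1%) were lower in each later library and 19 (14.0%) were higher in each later library. Among the 793 well-expressed genes the same courses took 16.9%, 30.1%, 29.4% and 23.6%, and among all 5028 genes 28.7%, 16.9%, 31.5% and 23.0%. In the same order the median ranges of the 793 were 0.66, 1.06, 1.49 and 1.40. The limit on range thus keeps the courses unequally, and nothing is read from the contrast. The 54 genes with a dip changed by a median of -0.21 until 36 h and 0.20 afterwards, and their median level went from 209 to 188 and 214 FPKM. The 37 genes with a peak changed by a median of 0.31 and then -0.30, with median levels of 179, 212 and 171 FPKM. The 26 falling genes had a median net change of -0.34 and the 19 rising genes one of 0.35. With median-of-ratios scaling the same 136 genes were split differently, into 21 lowest at 36 h, 56 highest at 36 h, 7 falling and 52 rising. Trimmed-mean scaling gave 29, 50, 6 and 51 in the same order, and equal totals gave 36, 46, 9 and 45. The courses of the 793 and 5028 genes were taken with the deposited scaling alone. These rescaled counts thus have no background and are not to be set beside the shares above. A course was called from any difference, however small. With the deposited scaling 34 of the 136 moved by less than 0.1 until 36 h, and 31 afterwards.

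**Figure D4:**
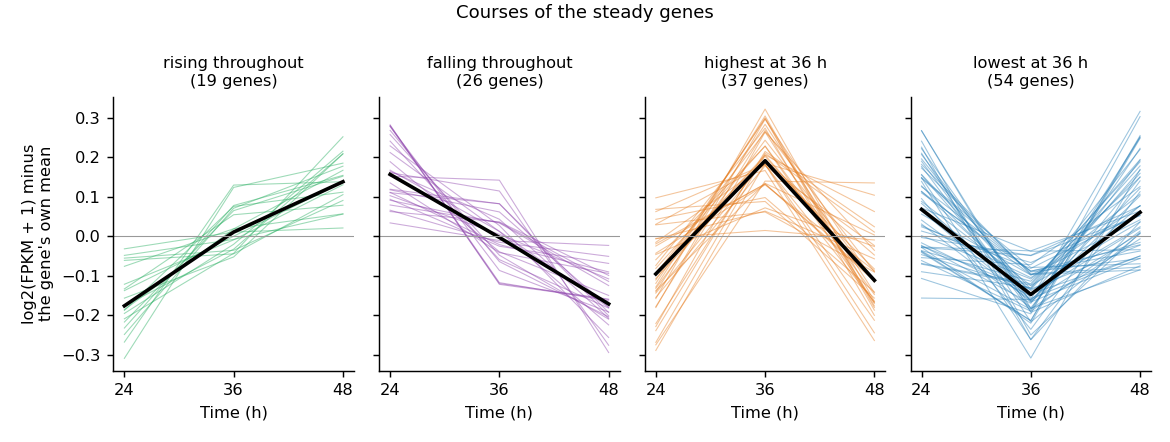
Each thin line is 1 of the 136 steady genes, drawn as log2(FPKM + 1) at 24, 36 and 48 h minus the gene's own mean with the deposited scaling, and the black line is the median of the panel. The panels hold 19 rising genes, 26 falling genes, 37 genes highest at 36 h and 54 lowest at 36 h. With median-of-ratios scaling the split of the 136 became 52, 7, 56 and 21, and that of all genes was not taken.

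After rescaling of the libraries, between 35 and 48 of the 136 genes no longer met the limits, according to the scaling. FPKM totals differ between the libraries, and the median gene was lower at 36 and 48 h than at 24 h, so a gene with constant FPKM is one that rose relative to the median gene. Under median-of-ratios scaling, which divides a library by its median ratio to each gene's geometric mean, the 136 genes had a median change of 0.21 from 24 to 48 h, with 109 ending higher and 27 lower, and their largest range was 0.73. Trimmed-mean scaling, which averages log ratios to the 24 h library after removing extremes, gave 0.23, with 112 higher and 24 lower. Equal totals gave 0.17, with 99 higher and 37 lower. The median over all genes moved at the same time from -0.25 to -0.03 with median-of-ratios scaling, to -0.01 with trimmed-mean scaling and to -0.06 with equal totals.

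Applying the same limits after rescaling changed the list more than its length. Median-of-ratios scaling gave 130 steady genes, of which 91 were among the 136, or 66.9% of the members and 70.0% of the new list. Trimmed-mean scaling gave 127 with 88 shared, 64.7% of the members and 69.3% of the new list. Equal totals gave 132 with 101 shared, 74.3% and 76.5%. The limits were met under all 4 scalings by 86 of the 136 genes, or 63.2%. The 86 had a median net change of -0.16 with the deposited scaling, with 22 ending higher and 64 lower, and they held the 26 falling genes and 4 of the 19 rising ones. The other 50 had a median net change of 0.26, with 39 ending higher and 11 lower. By their courses with the deposited scaling, 15 of the 50 were rising, 24 highest at 36 h and 11 lowest at 36 h. Much of this split follows from the scalings themselves. Each of the 3 others adds to the 36 h minus 24 h and the 48 h minus 24 h change of every member. That tends to narrow a fall, and it widens a rise. PAS_chr2-1_0618, PAS_chr2-1_0810, PAS_chr3_0578 and PAS_chr1-1_0324 were among the 86. The 2 members with the largest rise were not, with ranges under median-of-ratios scaling of 0.73 for PAS_chr3_0372 and 0.71 for PAS_chr1-4_0220. Nor were the 2 most abundant members, with ranges of 0.59 for PAS_chr3_0277 and 0.53 for PAS_chr2-1_0072 under median-of-ratios scaling.

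By the widest range over the 4 scalings, 17 of the 136 genes stayed under 0.25 and 58 under 0.4. The smallest widest range was that of PAS_chr4_0853, with 199, 184 and 184 FPKM at 24, 36 and 48 h. Its range was 0.11 with the deposited scaling, 0.13 with median-of-ratios scaling, 0.15 with trimmed-mean scaling and 0.09 with equal totals. PAS_chr1-4_0124 came next, with 116, 110 and 107 FPKM at 24, 36 and 48 h and ranges from 0.08 with equal totals to 0.15 with median-of-ratios scaling. Both were highest at 24 h with the deposited scaling, by 0.11 and 0.12 over 48 h.

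**Figure D5:**
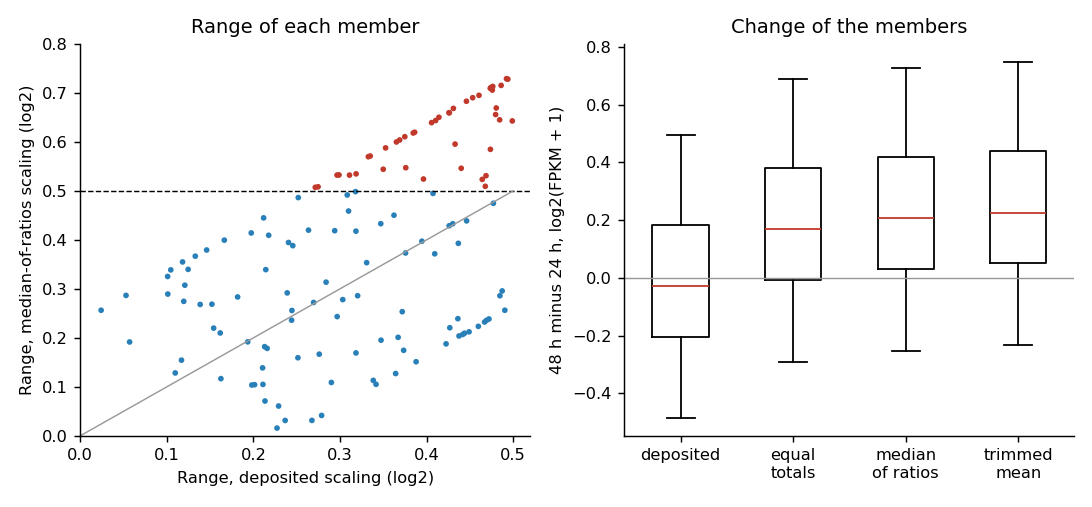
The left panel sets the range of each of the 136 genes with the deposited scaling against its range with median-of-ratios scaling, both on the log2 scale, with genes past 0.5 in red. The right panel shows the change from 24 to 48 h of the same genes under 4 scalings as boxes of the quartiles with the median in red and whiskers to the extremes, where the median goes from -0.03 with the deposited scaling to between 0.17 and 0.23 with the others.

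Ratios between genes do not depend on how a library is scaled. For each of the 9180 pairs of steady genes the log2 ratio of FPKM was taken in every library, and its range over the 3 libraries had a median of 0.44 and an interquartile range from 0.28 to 0.61. It was under 0.25 in 20.3% of pairs and under 0.5 in 59.7%, and by the rule it could hardly exceed 1, with a highest value of 0.99. Among the 215496 pairs of the 657 other well-expressed genes the median was 2.07, and 5.55% of pairs were under 0.5. The rule used the same values and put genes of wider range in this second set, so nothing is read from the contrast. A steady gene kept its ratio within 0.5 to between 38 and 130 of the 135 others, with a median of 79. The gene with 130 was PAS_chr2-1_0618, which had the smallest range, 0.02. Its ratio to another member therefore varied nearly as that member did alone. No gene kept its ratio within 0.5 to all 135. The rule bounds each gene alone and allows a pair to move apart by more than 0.5, so these counts are a description only.

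How far steadiness between 2 libraries extended to the third was read from genes chosen without it. On 36 and 48 h alone 454 genes met both limits, 44.6% of the 1017 that reached 100 FPKM in those 2 libraries. Of the 454, 136 or 30.0% still met them when 24 h was added. On 24 and 36 h alone 461 of 1038 did (44.4%), and 29.5% of these still met them with 48 h. On 24 and 48 h alone 276 of 854 did (32.3%), and 49.3% of these still met them with 36 h. A gene steady over 3 libraries is steady over any 2, so the 136 were the same each time. The shares that remained only restate the lengths of the 3 lists, and nothing is read from them. The library left out differed from the mean of the other 2 by at least 1 on the log2 scale in 32.6% of the genes chosen without 24 h, in 34.5% of those chosen without 48 h and in 9.06% of those chosen without 36 h. The same shares over all genes that reached 100 FPKM in the 2 libraries, whether steady or not, were 44.4%, 45.5% and 16.0%. The genes chosen without 24 h had a median difference of -0.24 at 24 h, and those chosen without 48 h one of -0.47 at 48 h, against -0.25 and -0.60 over all genes at that level.

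The place of the genes, as the prefix of the tags gives it, did not enter the rule. Chromosome 1 held 38 of the 136 steady genes, chromosome 2 held 40, chromosome 3 held 33 and chromosome 4 held 21, and 4 had tags without a chromosome. As a share of the well-expressed genes of each chromosome this was 18.1% of 210, 18.3% of 218, 18.6% of 177 and 13.0% of 162. The share on chromosome 4 was the lowest of the 4, next to 17.2% over all 793. Well-expressed genes of chromosome 4 had the highest median range of the 4 chromosomes, 1.33, against 1.16, 1.03 and 1.06 on chromosomes 1, 2 and 3. Median and share are taken from the same ranges, so the median is not a separate observation. Whether these shares differ by more than chance was not tested.

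Neighbouring tags did not enter the rule either. Among 131 pairs of well-expressed genes with consecutive tags, both genes were steady in 2 pairs, and in neither pair did both follow the same course. Of the 41 well-expressed genes with a steady gene at the next tag on either side, 4 were steady themselves, or 9.76%. Of the 234 well-expressed genes with any well-expressed gene at the next tag, 37 were steady, or 15.8%. Whether these shares differ by more than chance was not tested either. Consecutive tags stand for neighbouring genes only as far as the numbering follows the chromosome, and gene positions were not used here.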

How the data were processed

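Messenger RNA of cells taken at 24, 36 and 48 h, with 1 library each, was analysed from 1 deposited table. Its FPKM values were made by the authors, per the file headers. CASAVA and HISAT2 2.1.0 are listed in the submitters' processing notes. The counting program, genome build, annotation, strandedness and filtering were not given in the sources used here. Columns were matched to times by the codes in the sample titles.

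Differences were taken on the log2(FPKM + 1) scale. No count or depth could be recovered: among genes whose values in a pair of libraries lay under 3 FPKM, at most 31.6% of ratios came within 0.2% of a ratio of whole numbers up to 8. Genes under 1 FPKM in every library, 12 in number, were left out, except in the setting without a floor. With 1 library per group no test was run.

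The steady genes and the gene lists were chosen with earlier results of these data known. All 24 lists of functions had no members, as 0 of 5040 tags matched the 5305 genes of the reference table of Komagataella pastoris. Without an annotation, the rule for named genes gives the 2 members with the largest rise and the 2 with the largest fall from 24 to 48 h. All other tags were named after their values were seen. Alternatives were pseudocounts of 0.1 and 10, median-of-ratios, trimmed-mean (30% of ratios and 5% of levels trimmed on each side) and equal-total scaling, other limits, and leaving out each library. Scripts were tested on simulated data. Python 3.11.15, numpy 2.4.6, pandas 2.3.3 and matplotlib 3.10.9 were used.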

Additional observations from a re-analysis of the deposited data

How the results depend on the processing

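The number of steady genes stayed between 127 and 143 under both pseudocounts and the 3 other scalings, and was within 1.5 times 136. It followed the limits by construction. A floor of 50 FPKM gave 362 genes and a floor of 200 FPKM gave 55 with shares of total FPKM of 2.74% at 24 h and 3.00% at 36 h. No floor gave 856 genes with shares of 7.98%, 8.74% and 9.23% at 24, 36 and 48 h. These were counted over all 5040 genes, and the 846 given above over 5028. A range under 0.25 gave 41 genes with 0.995%, 1.07% and 1.11%, and a range under 1 gave 348 genes with 11.3%, 12.8% and 12.5%. Over 2 libraries, without the 24 h library there were 454 genes with 19.4%, 22.2% and 23.0%, without the 36 h library 276 genes with 7.90%, 9.92% and 9.04%, and without the 48 h library 461 genes with 21.2%, 23.9% and 14.5%. Chosen after seeing the data, the demand that a gene be steady under all 4 scalings left 86. With the 136 genes kept and the libraries rescaled, also added later, the median change for 36 h against 24 h was 0.19 with median-of-ratios scaling, 0.16 with trimmed-mean scaling and 0.10 with equal totals, and for 48 h against 24 h it was 0.21, 0.23 and 0.17. Median changes of lists chosen anew under the other pseudocounts, scalings, floors and ranges were within 0.1 of those reported. Each such list is bounded by its own range limit, so this closeness largely follows from the rule. None of the 4 genes named for their net change turned direction under the pseudocounts and scalings, but the sizes moved. With median-of-ratios, trimmed-mean and equal-total scaling the change from 24 to 48 h was -0.25, -0.23 and -0.29 for PAS_chr3_0578 and -0.24, -0.22 and -0.28 for PAS_chr1-1_0324. The range was 0.73, 0.75 and 0.69 for PAS_chr3_0372 and 0.71, 0.73 and 0.67 for PAS_chr1-4_0220, so neither of these was steady under any of the 3 other scalings. The gene lists gave no value under any setting, as no tag matched. No paired analysis was possible because there is 1 library at each time. Depth is unknown, and without replicates a range under 0.5 over 3 libraries cannot be set against an error between replicates.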
